A study of Mus musculus with 24 samples.

Results

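The mRNAs of the subunits of RNA polymerases I, II and III were followed in CGR8 cells, a mouse embryonic stem cell (ESC) line, after depletion of the ribosome biogenesis factor Rsl24d1 and after differentiation with retinoic acid (RA). The genes were every symbol of the deposited table made of Polr, the digit 1, 2 or 3 and a letter suffix. The rule found 28 of 54242 symbols, 5 with the digit of Pol I, 13 of Pol II and 10 of Pol III. All 28 passed a filter that removed weakly expressed genes and left 16447 genes. Another 3 subunits of Pol I were listed under other symbols, Twistnb, Cd3eap and Znrd1, and are described with the other genes of the pathway.

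The series held 24 RNA-seq libraries in 8 groups of 3, labelled as poly-A RNA, while the study's methods name a total-RNA kit. Cells received a pool of non-targeting siRNAs (si-CTL) or a pool of siRNAs to Rsl24d1 (si-Rsl24d1). They were collected after 72 h in serum with LIF, the cytokine that keeps ESCs undifferentiated (day 0), or were seeded again and collected after 4 days with 10 nM RA (day 4). The labels give the day 4 medium as serum with RA, while the design text names LIF with RA. Both siRNAs were used at both stages without doxycycline (no rescue) and with doxycycline, which induced an ectopic Rsl24d1 open reading frame (rescue). Groups without rescue were labelled as carrying an empty vector and groups with rescue as carrying the Rsl24d1 expression vector, while the study's methods describe an inducible line. Doxycycline, vector and ectopic protein therefore changed together and cannot be told apart, and the same holds for RA, time and replating between the stages. In si-Rsl24d1 cells, the level of Rsl24d1 mRNA rose between the stages as well. The labels call the triplicates independent without naming separate cultures, so that p-values measure the spread between these samples. The RNA came from whole cultures, in which fewer cells of a type and less RNA per cell cannot be told apart.

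RNA polymerase I transcribes the precursor of the large ribosomal RNAs in the nucleolus, RNA polymerase II transcribes mRNAs, and RNA polymerase III transcribes the 5S ribosomal RNA, tRNAs and other short RNAs. Each enzyme has its own pair of large catalytic subunits, encoded by Polr1a and Polr1b, Polr2a and Polr2b, and Polr3a and Polr3b. Around this core sit small subunits found in all of the enzymes (Polr2e, Polr2f, Polr2h, Polr2k and Polr2l), a pair shared by Pol I and Pol III (Polr1c and Polr1d), and subunits particular to each enzyme. Polr3g and Polr3gl are paralogs that occupy the same place in Pol III in alternative forms of the enzyme, and the Polr3g form is known for its abundance in pluripotent cells. Ribosome production draws on all of these enzymes, and growth and differentiation are known to alter the output of Pol I and Pol III.

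Promoter sequences are shown for genes on which the results turn: Polr1a, Polr1b and Polr2a, which had the largest falls under RA in si-CTL cells without rescue, Polr3e, a Pol III subunit that fell in all RA comparisons, and the paralogs Polr3g and Polr3gl, which differed after the knockdown. Each runs 5′ to 3′ in the direction of the gene, from 250 bases before to 50 after the start in RefSeq on GRCm38.p6, with matches to the searched motifs in capitals. The positions are chr6:71908803-71909102 (plus strand) for Polr1a, chr2:129100746-129101045 (plus) for Polr1b, chr11:69758584-69758883 (minus) for Polr2a, chr7:120917528-120917827 (plus) for Polr3e, chr13:81710964-81711263 (minus) for Polr3g and chr3:96594132-96594431 (minus) for Polr3gl.
Polr1a: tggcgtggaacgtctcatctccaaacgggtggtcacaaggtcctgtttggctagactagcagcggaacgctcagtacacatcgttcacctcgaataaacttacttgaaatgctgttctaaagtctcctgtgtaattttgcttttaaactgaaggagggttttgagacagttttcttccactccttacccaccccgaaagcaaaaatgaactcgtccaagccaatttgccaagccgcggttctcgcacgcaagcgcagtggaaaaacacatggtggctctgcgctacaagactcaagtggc
Polr1b: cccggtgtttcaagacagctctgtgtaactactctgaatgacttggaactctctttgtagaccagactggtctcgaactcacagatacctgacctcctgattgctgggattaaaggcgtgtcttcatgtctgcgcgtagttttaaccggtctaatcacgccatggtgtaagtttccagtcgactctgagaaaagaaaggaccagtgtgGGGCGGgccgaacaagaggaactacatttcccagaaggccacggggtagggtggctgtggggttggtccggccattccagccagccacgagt
Polr2a: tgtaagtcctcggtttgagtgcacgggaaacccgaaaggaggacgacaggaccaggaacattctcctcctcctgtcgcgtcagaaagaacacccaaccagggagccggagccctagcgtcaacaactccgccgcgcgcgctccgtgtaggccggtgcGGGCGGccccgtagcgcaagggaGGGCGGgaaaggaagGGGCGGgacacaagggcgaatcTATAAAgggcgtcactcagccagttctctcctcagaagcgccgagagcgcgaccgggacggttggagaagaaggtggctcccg
Polr3e: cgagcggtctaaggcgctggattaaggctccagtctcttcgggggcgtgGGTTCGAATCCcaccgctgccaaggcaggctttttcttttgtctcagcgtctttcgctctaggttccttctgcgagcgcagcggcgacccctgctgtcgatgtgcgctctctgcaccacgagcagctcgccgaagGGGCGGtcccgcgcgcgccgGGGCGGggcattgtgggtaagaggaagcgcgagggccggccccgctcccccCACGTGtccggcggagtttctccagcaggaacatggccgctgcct
Polr3g: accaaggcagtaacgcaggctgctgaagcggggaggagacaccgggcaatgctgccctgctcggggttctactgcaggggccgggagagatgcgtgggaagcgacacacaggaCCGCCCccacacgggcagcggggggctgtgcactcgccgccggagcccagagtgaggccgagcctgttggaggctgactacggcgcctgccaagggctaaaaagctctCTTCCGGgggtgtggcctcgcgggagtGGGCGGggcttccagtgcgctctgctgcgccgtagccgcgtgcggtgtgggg
Polr3gl: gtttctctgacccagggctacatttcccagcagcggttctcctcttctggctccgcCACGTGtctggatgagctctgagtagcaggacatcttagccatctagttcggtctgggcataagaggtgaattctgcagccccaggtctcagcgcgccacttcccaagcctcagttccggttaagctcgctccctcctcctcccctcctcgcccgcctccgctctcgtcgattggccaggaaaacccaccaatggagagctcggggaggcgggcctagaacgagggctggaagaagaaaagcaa

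RefSeq promoters were found for 22 of the 28 genes, in 24 windows. A subunit gene counted if any of its windows matched, while the percentages are shares of single promoter windows. Motifs of 7 kinds were searched on both strands, and none of their strings contains another. The GC box GGGCGG was present in 14 of the 22 genes and in 35.7% of all 32851 promoters of this length. The ETS string CCGGAAG was present in 7 genes and 8.86% of all promoters, the E-box CACGTG in 4 and 7.15%, and the NRF1 string (GCGC, any base, TGCGC) in 4 and 4.6%. TATAAA was found in 2 genes (13.6% of all promoters) and TGATGNAA, an element bound by ATF4 with C/EBP factors, in 1 (3.97%). Among genes that passed the filter, the GC box reached 60.8%, the ETS string 16.3%, the E-box 9.73%, the NRF1 string 9.15%, TATAAA 7.67% and TGATGNAA 2.22%, so that the share of the GC box in the subunit genes, 14 of 22, stood near that of other expressed genes. The Polr3g window held a pair of GC boxes and an ETS string, whereas the Polr3gl window held an E-box and none of the other motifs. The Polr1a window held no match. The Polr3e window also held the core of the B box of tRNA genes (GGTTCGA, any 2 bases, CC). This string occurred in 40 of all promoters (0.122%) and in 0.178% of those of genes that passed the filter. It was searched after the sequence had been seen. These matches are descriptions of the letters in each window.

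Rsl24d1 mRNA was lower in every day 0 library that received its siRNAs. Its level in TPM, a measure scaled for transcript length and for the library total, was 147.8, 139.7 and 135.9 in si-CTL and 36.6, 37.9 and 32.7 in si-Rsl24d1 without rescue, a log2 difference of -1.95 (limma adjusted p = 3.2e-14). With rescue, it was 158.0, 149.7 and 146.6 in si-CTL and 103.3, 96.1 and 121.5 in si-Rsl24d1. At day 4 without rescue, the si-CTL libraries held 95.9, 101.0 and 96.7 TPM and the si-Rsl24d1 libraries 89.3, 96.3 and 99.8 (log2 difference -0.04, limma adjusted p = 0.66). The day 4 siRNA groups without rescue therefore overlapped in the targeted mRNA. With rescue at day 4, the si-CTL libraries held 126.0, 113.7 and 114.3 TPM and the si-Rsl24d1 libraries 133.8, 131.4 and 126.8. Every si-Rsl24d1 library with rescue thus lay above every si-CTL library at day 4. All day 4 values describe cells that had been transfected before the RA treatment.

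In undifferentiated si-CTL cells without rescue, the Pol II genes were the most abundant and the Pol III genes the least. Genes were grouped by the digit of the symbol, so that shared subunits counted as Pol I or Pol II. The median TPM was 124.37 over the Pol II genes, 63.83 over Pol I and 26.18 over Pol III. It was 137.22 over the subunits of all 3 enzymes and 148.33 over the pair shared by Pol I and Pol III. Polr2e, a small subunit of all 3 enzymes, had the highest level (204.5 ± 6.63 TPM, SD, n = 3), and Polr3gl had the lowest (9.41, 9.28 and 8.02 TPM). The subunits shared between enzymes covered a wide range, from 40.4 TPM for Polr2l up to Polr2e. Polr1d (162 ± 4.48 TPM) and Polr1c (135 ± 2.35), the pair shared by Pol I and Pol III, lay above Polr1a, the largest Pol I subunit (63.8), and above Polr3a, the largest Pol III subunit (19.1 ± 1.12). Polr2a, the catalytic subunit of Pol II, was at 156.3, 143.4 and 136.9 TPM, against 78.9, 67.4 and 72.3 for its partner Polr2b. The libraries of a group were close to each other: the median SD within groups was 0.065 on the log2 scale for the subunit genes and 0.087 for all genes tested.

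**Figure D1:**
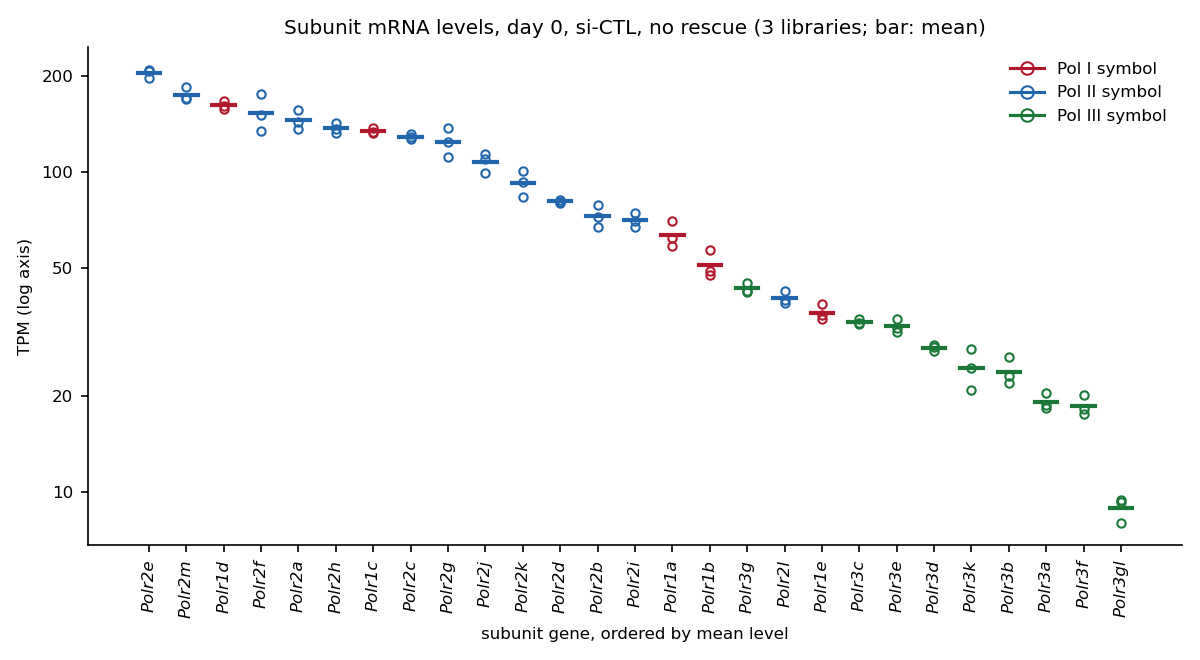
Levels of 27 subunit genes in the 3 undifferentiated si-CTL libraries without rescue, in TPM on a log axis, with points for libraries and bars for means. Polr2e is highest at 204.5 TPM and Polr3gl lowest, and most Pol III genes sit to the low end.

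Differentiation with RA was accompanied by lower mRNA levels of most subunit genes in each of the 4 conditions. A gene was counted as passing at a limma adjusted p below 0.01 over all genes tested. In si-CTL cells without rescue, 18 of 28 subunit genes passed, 0 higher and 18 lower, where 60.9% of all genes passed, 24.1% higher and 36.7% lower. In si-CTL cells with rescue, 20 were lower and 0 higher (59.2% of all genes passed, 36.8% higher and 22.4% lower). In si-Rsl24d1 cells, 19 were lower and 4 higher without rescue (55.8% of all genes, 29.4% higher and 26.4% lower), and 20 were lower and 1 higher with rescue (58.1%, 32.4% higher and 25.8% lower). The share that passed was thus near the background in the first comparison, while the share that was lower exceeded it in each. The median log2 difference of the subunit genes was -0.41, -0.39, -0.35 and -0.41 in these comparisons in turn, beside -0.10, 0.12, 0.02 and 0.07 for all genes. No libraries are shared among the 4 comparisons. In si-Rsl24d1 cells, RA and the rise of Rsl24d1 mRNA between the stages cannot be told apart.

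All 4 comparisons had 12 subunit genes lower and past the test, a pattern held by 14.8% of all genes tested. Under the median of ratios, which moved the all-gene median from -0.10 to 0.00 in si-CTL cells without rescue, Polr2h (-0.12, limma adjusted p = 0.18) and Polr2l (-0.27, limma adjusted p = 0.013) no longer passed there. On the values as deposited, the 12 genes were Polr1a and Polr1b of Pol I, and Polr2a, Polr2d, Polr2h, Polr2i, Polr2l and Polr2m of Pol II. The Pol III genes among the 12 included Polr3c, Polr3d and Polr3e. By enzyme, 3, 2, 4 and 4 of the 5 Pol I genes were lower in turn, 6, 12, 9 and 11 of the 13 Pol II genes, and 9, 6, 6 and 5 of the 10 Pol III genes. Changes over 1.8-fold were seen in 3 genes in si-CTL cells without rescue (15.0% of all genes), 2 with rescue (15.6%), 3 in si-Rsl24d1 cells without rescue (14.1%) and 4 with rescue (14.9%), so that the shares were at or under the background. These genes were Polr1a, Polr1b and Polr2a in both comparisons without rescue, Polr2l and Polr3gl in si-CTL cells with rescue, and Polr1b, Polr2a, Polr2d and Polr2l in si-Rsl24d1 cells with rescue.

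**Figure D2:**
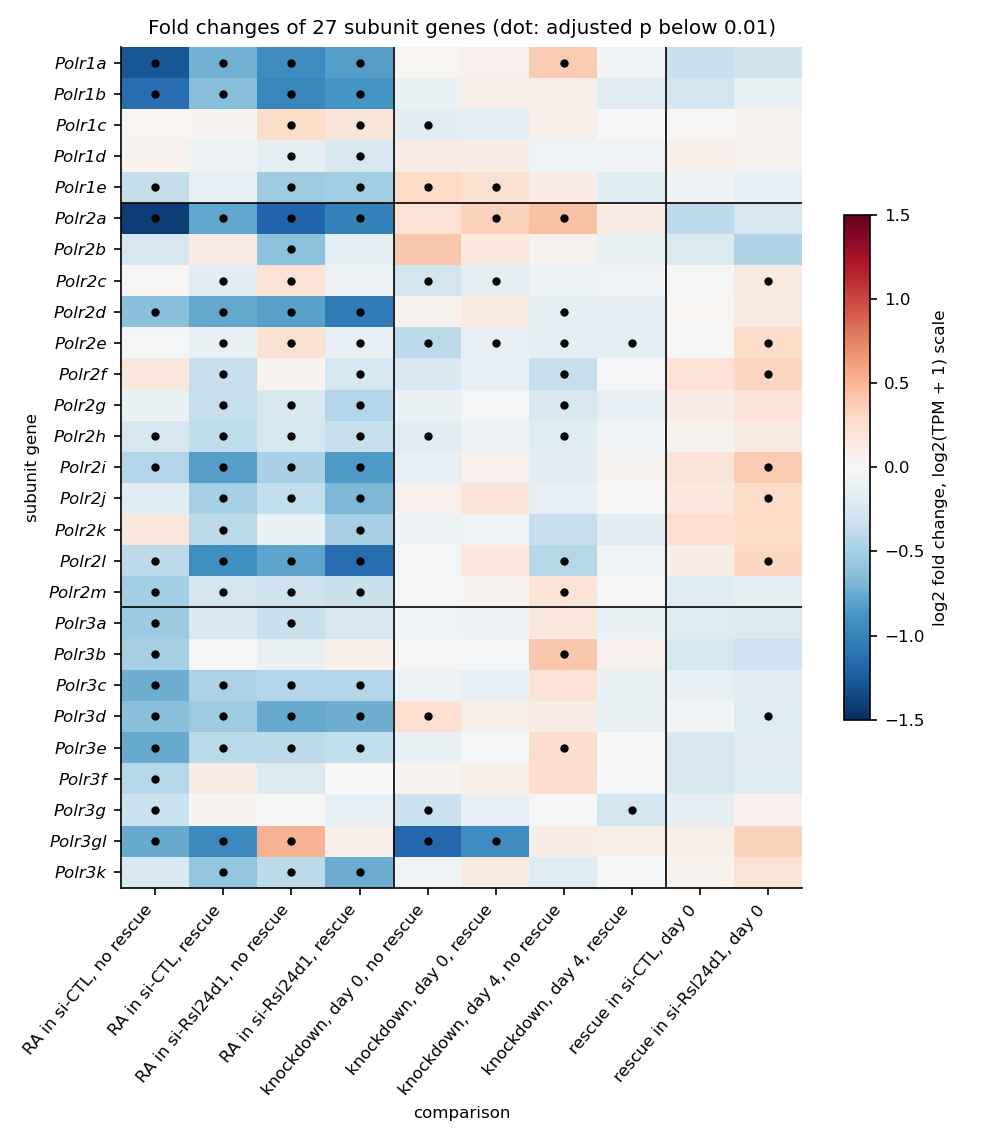
Log2 fold changes of 27 subunit genes (rows, grouped by enzyme) in the 10 comparisons of pairs of groups (columns), on the log2(TPM + 1) scale, with a dot where the adjusted p was below 0.01. The 4 RA columns hold mostly negative values, and Polr3gl carries the most negative value of the day 0 knockdown columns.

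In si-CTL cells without rescue, the largest subunits of Pol I and Pol II fell furthest. Polr2a went from 156.3, 143.4 and 136.9 TPM at day 0 to 54.1, 52.7 and 54.6 at day 4 in these cells. All day 4 libraries lay below all day 0 libraries, and the log2 difference was -1.42 ± 0.09 (SE), or 2.67-fold (limma adjusted p = 5.6e-11). The log2 difference of Polr2a was -0.78 in si-CTL cells with rescue, -1.19 in si-Rsl24d1 cells without rescue and -1.01 with rescue. Polr2b, the second-largest Pol II subunit, behaved otherwise: its differences were -0.26, 0.12, -0.62 and -0.13, and only that of si-Rsl24d1 cells without rescue passed (limma adjusted p = 0.00029). Its day 4 libraries in si-CTL cells without rescue, at 56.9, 60.7 and 64.8 TPM, lay close under the day 0 libraries.

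Polr1a, the largest Pol I subunit, went from 70.1, 62.4 and 58.9 to 26.0, 25.3 and 25.5 TPM in si-CTL cells without rescue (-1.28 ± 0.09, limma adjusted p = 3.8e-10). Polr1b, its catalytic partner, went from 56.9, 49.2 and 47.7 to 22.2, 22.6 and 22.8 TPM (-1.15 ± 0.08, limma adjusted p = 9.7e-11). Neither gene's day 4 libraries reached its day 0 libraries. In si-Rsl24d1 cells without rescue, Polr1a went from 67.5, 65.7 and 62.6 to 28.5, 36.7 and 36.1 TPM, and Polr1b from 49.3, 47.0 and 46.7 to 20.9, 24.0 and 26.7. Across the other 3 comparisons, Polr1a fell by 0.72 to 0.94 and Polr1b by 0.63 to 0.98 on the log2 scale. Polr1e, a subunit particular to Pol I, fell by 0.36 in si-CTL cells without rescue and by 0.53 in both si-Rsl24d1 comparisons, and its difference was -0.12 in si-CTL cells with rescue (limma adjusted p = 0.086).

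The catalytic pair of Pol III moved less. Polr3a was at 20.4, 18.6 and 18.3 TPM at day 0 and 13.1, 12.7 and 12.5 at day 4 in si-CTL cells without rescue (-0.55 ± 0.08, limma adjusted p = 9.1e-06), without overlap. Polr3a also passed in si-Rsl24d1 cells without rescue (-0.33), but not with rescue in si-CTL (-0.23, limma adjusted p = 0.022) or si-Rsl24d1 cells (-0.25, limma adjusted p = 0.012), where it passed once the length trend was removed (-0.43 and -0.37). Polr3b went from 26.4, 23.0 and 21.9 to 16.2, 16.6 and 16.5 TPM in si-CTL cells without rescue (-0.50 ± 0.10, limma adjusted p = 0.00014), and its differences in the other comparisons were -0.02, -0.11 and 0.07, none of which passed. Without the length trend, the Polr3b difference in si-CTL cells with rescue was -0.22 and passed (limma adjusted p = 0.00071). Polr3c, Polr3d and Polr3e, subunits of the subcomplexes through which Pol III opens and escapes promoters, fell in all conditions. Polr3e went from 34.8, 32.5 and 31.5 to 18.8, 19.3 and 19.2 TPM in si-CTL cells without rescue (-0.75 ± 0.06), and Polr3c from 33.8, 34.7 and 33.5 to 20.8, 20.4 and 18.9 (-0.73 ± 0.07). In the other conditions, Polr3e fell by 0.37 to 0.40 and Polr3c by 0.44 to 0.47. Polr3d, the partner of Polr3e, fell by 0.53 to 0.76 over the 4 comparisons.

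The small subunits common to all enzymes were divided without rescue, whereas all 5 passed as lower in both rescue comparisons. Polr2l was lower in each comparison, from 39.8, 38.9 and 42.4 to 30.0, 30.8 and 30.4 TPM in si-CTL cells without rescue (-0.40 ± 0.07) and from 51.4, 49.98 and 45.6 to 21.6, 20.4 and 22.9 in si-Rsl24d1 cells with rescue (-1.14 ± 0.07, limma adjusted p = 7.1e-12). Polr2h also fell in each, by 0.25 to 0.38. Polr2e differed little: it was at 205.7, 199.7 and 193.6 TPM at day 4 in si-CTL cells without rescue (-0.03, limma adjusted p = 0.33), and its largest change was a rise of 0.22 ± 0.03 in si-Rsl24d1 cells without rescue. With rescue, Polr2e passed as lower in si-CTL (-0.11) and si-Rsl24d1 cells (-0.12). Polr2f and Polr2k passed as lower in both rescue comparisons, Polr2f by 0.35 and 0.26 and Polr2k by 0.40 and 0.50 in si-CTL and si-Rsl24d1 cells, whereas without rescue Polr2f differed by 0.17 and 0.05 and Polr2k by 0.17 and -0.10, none past the threshold. The Polr2f call in si-Rsl24d1 cells with rescue was lost once the length trend was removed (-0.27, limma adjusted p = 0.011). Whether the RA effect differed with rescue was not tested. The Polr2k reads may be uncertain, since a Polr2k pseudogene was listed as well, at up to 1.81 TPM.

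The pair shared by Pol I and Pol III did not follow the Pol I core. Polr1c was at 137.2, 133.6 and 132.7 TPM at day 0 and 134.2, 139.8 and 138.9 at day 4 in si-CTL cells without rescue (0.03 ± 0.05, limma adjusted p = 0.54), and the groups overlapped. It rose in si-Rsl24d1 cells, from 112.1, 125.6 and 120.5 to 141.9, 145.7 and 146.4 TPM without rescue (0.28 ± 0.05, limma adjusted p = 2.8e-05) and by 0.18 ± 0.05 with rescue. Polr1d was between 158.2 and 167.0 TPM at day 0 and between 165.4 and 169.7 at day 4 in si-CTL cells without rescue, and it passed as lower in si-Rsl24d1 cells without (-0.13) and with rescue (-0.24). The Polr1d call without rescue was lost under the median of ratios (limma adjusted p = 0.062) and when any of 5 libraries was left out, and that of Polr1c with rescue was lost under the median of ratios (0.10, limma adjusted p = 0.046) and without si-Rsl24d1 with rescue replicate 2 at day 0 (limma adjusted p = 0.012). Polr2d, which with Polr2g forms the stalk of Pol II, had small spread and fell in each comparison. It went from 80.2, 80.8 and 82.0 to 52.8, 51.7 and 51.2 TPM in si-CTL cells without rescue (-0.63 ± 0.04) and from 92.9, 91.5 and 91.3 to 43.7, 43.4 and 43.5 in si-Rsl24d1 cells with rescue (-1.06 ± 0.04, limma adjusted p = 1.1e-14). Polr2i, a small Pol II subunit that takes part in transcript fidelity, fell by 0.44, 0.82, 0.49 and 0.85 in turn.

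Transcript length moved with these differences. Over all genes, the median RA difference went from 0.09 for genes up to 1 kb to -0.31 for those over 8 kb in si-CTL cells without rescue, and from 0.01 to 0.28 in si-CTL cells with rescue. In si-Rsl24d1 cells it went from 0.00 to 0.03 without rescue and from 0.02 to 0.19 with rescue. Polr1a (9216 bases for the longest annotated transcript) and Polr2a (6740 bases) belong to the long genes, and 11 of the 28 subunit transcripts exceeded 3 kb. With the length trend of each library removed, the Polr1a differences were -0.98, -1.02, -0.96 and -1.02, and those of Polr2a were -1.17, -1.03, -1.22 and -1.17. The range over the 4 conditions thereby narrowed from 0.56 to 0.06 for Polr1a and from 0.64 to 0.18 for Polr2a. Polr3a (range 0.32 to 0.07) and Polr1b (0.51 to 0.20) narrowed as well, but the ranges of Polr2l (0.75 and 0.76) and Polr3gl (1.48 and 1.49) were similar before and after. Among those that widened were Polr3k (0.52 to 0.67), Polr2c (0.369 to 0.505) and Polr2f (0.52 to 0.62). The range narrowed in 21 of 28 subunit genes and in 11091 of 16123 genes with a length, so that the share was near the background. Without the trend, 19, 24, 20 and 21 subunit genes were lower and 1, 0, 4 and 1 higher.

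**Figure D3:**
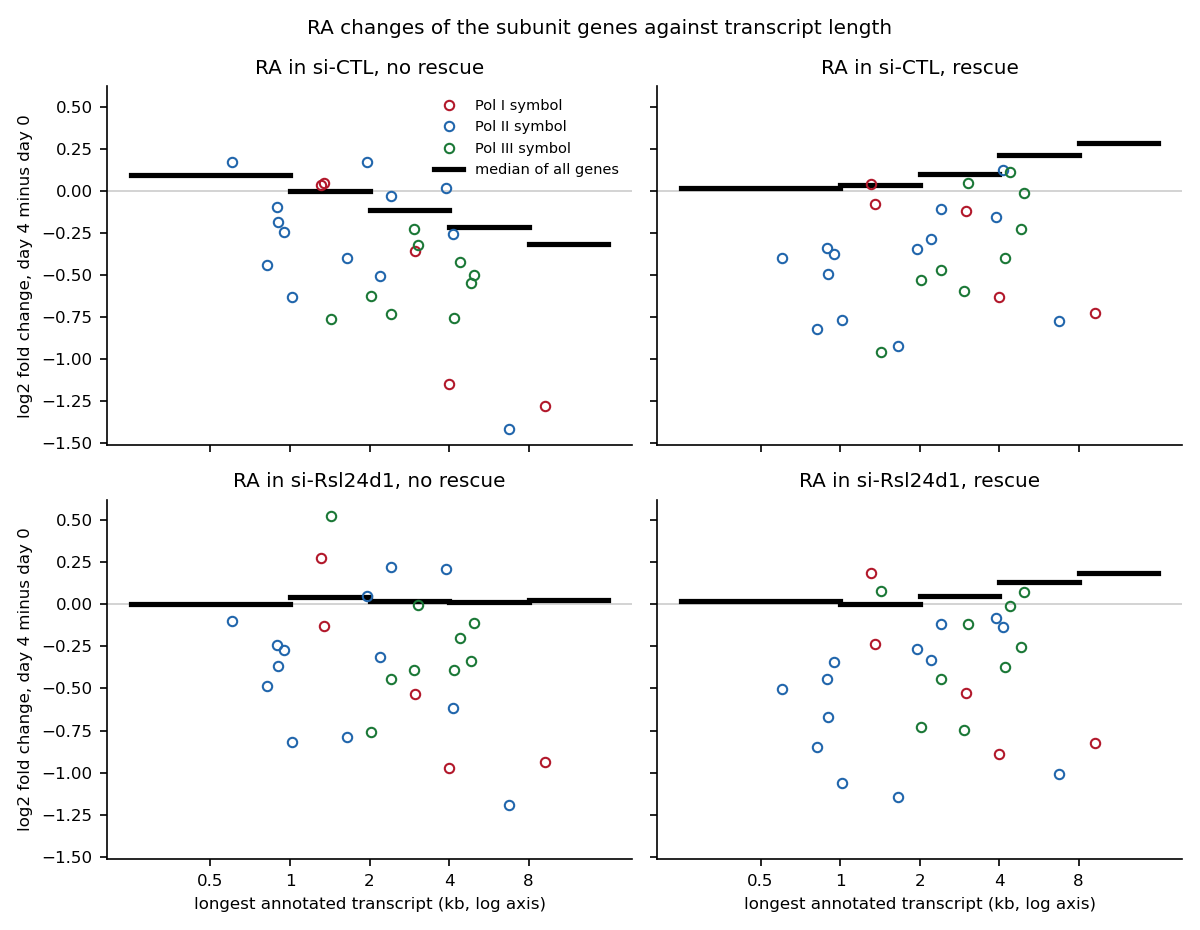
Log2 difference between day 4 and day 0 against the length of the longest annotated transcript (kb, log axis) in the 4 RA comparisons, with points for subunit genes coloured by enzyme and black bars for the medians of all genes in 5 length classes. The all-gene median ends at -0.31 for the longest genes in si-CTL cells without rescue and at 0.28 with rescue, and most subunit genes lie below the bars.

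**Figure D4:**
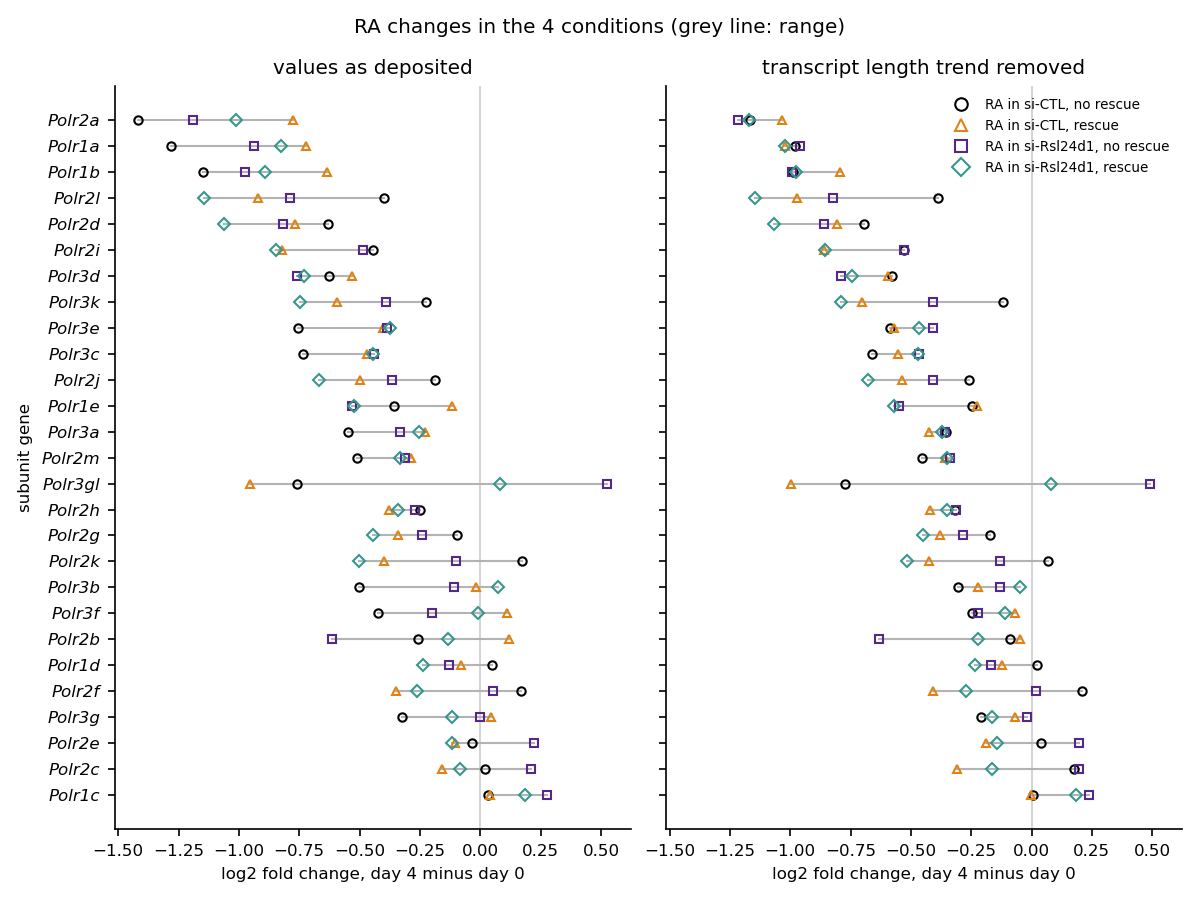
RA differences of each subunit gene in the 4 conditions, as deposited (left) and with the length trend of each library removed (right), with a grey line for the range. Ranges of Polr1a and Polr2a shrink to 0.06 and 0.18, while that of Polr3gl remains near 1.49.

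Fewer of the genes differed between the siRNAs at day 0, and Polr3gl stood out in size. Without rescue, 8 of 28 subunit genes passed, 2 higher and 6 lower, where 30.4% of all genes passed (14.3% higher, 16.1% lower), so that the share was near the background. The median log2 difference was -0.06 for the subunit genes and -0.01 for all genes. A change over 1.8-fold was seen in 1 gene, Polr3gl, against 4.18% of all genes. Polr3gl went from 9.41, 9.28 and 8.02 TPM in si-CTL to 3.66, 2.83 and 3.71 in si-Rsl24d1, and the groups did not overlap. Its log2 difference was -1.17 ± 0.10 (limma adjusted p = 6e-09), or 2.26-fold with 1 added to each TPM, which understates the change of low genes. With rescue, its levels were 8.35, 10.2 and 10.2 in si-CTL and 4.59, 4.57 and 4.42 in si-Rsl24d1 (-0.93 ± 0.10, limma adjusted p = 5.1e-07). Whether the Polr3gl difference came from the loss of Rsl24d1 was not tested. An antisense transcript, Gm16253, overlaps Polr3gl exons on the other strand, and the sources used here differ on whether the library kit kept strand.

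Polr3g also fell without rescue, by less, from 45.1, 42.6 and 42.3 to 34.6, 35.8 and 32.8 TPM (-0.32 ± 0.06, limma adjusted p = 0.00012). With rescue the Polr3g difference was -0.12 (limma adjusted p = 0.14). Polr3g thus exceeded Polr3gl by a TPM ratio of 4.88 ± 0.35 (SD over 3 libraries) in control cells and of 10.3 ± 2.06 in depleted cells without rescue, and 4.17 ± 0.83 and 7.98 ± 0.55 with rescue. At day 4, the ratio lay between 6.49 and 9.21 in group means.

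**Figure D5:**
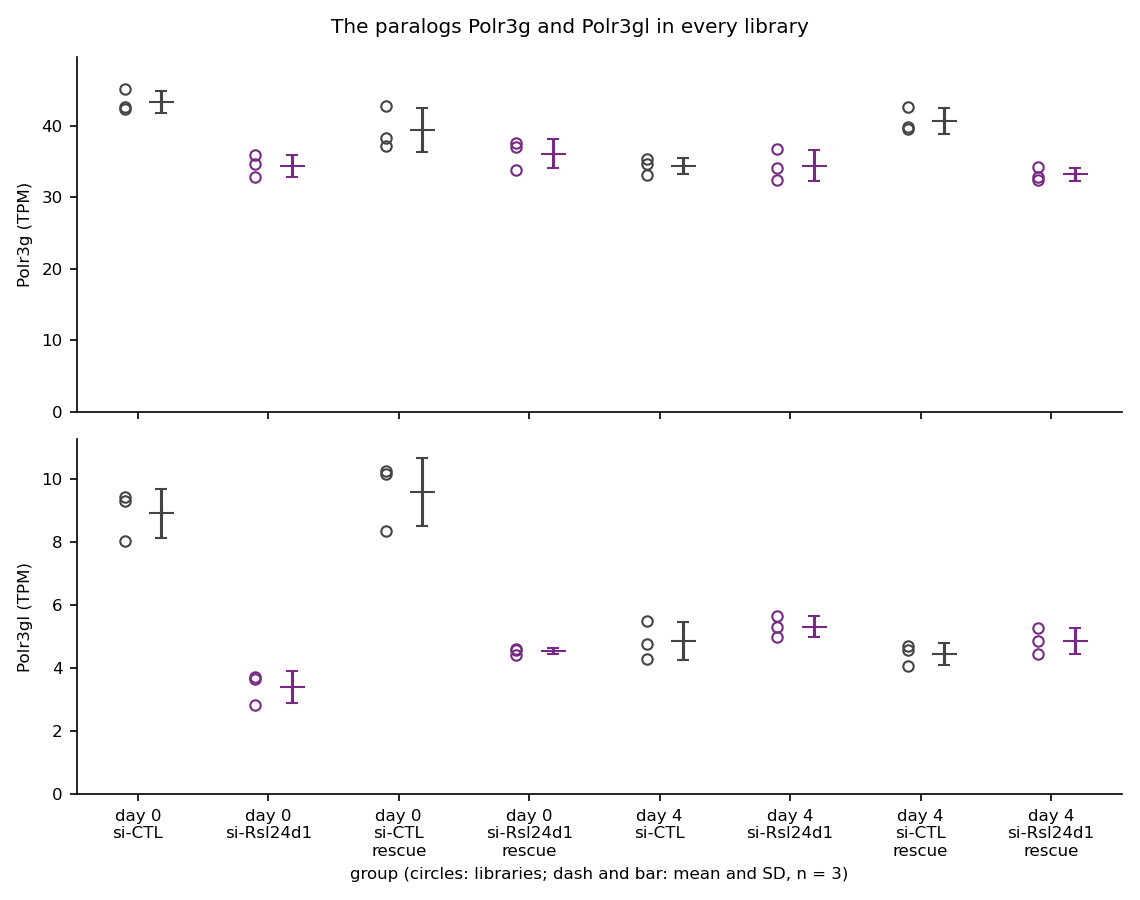
Polr3g and Polr3gl in TPM in all 24 libraries by group, with circles for libraries and a dash and bar for mean and SD (n = 3). Polr3gl is high in the 6 day 0 si-CTL libraries (8.02 to 10.2) and lower in every other group, and Polr3g lies between 32.4 and 45.1 TPM throughout.

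The other genes past the threshold in the day 0 knockdown without rescue had smaller changes. Polr2e went from 196.9, 207.3 and 209.3 to 152.4, 157.5 and 157.1 TPM (-0.39 ± 0.03, limma adjusted p = 2.9e-09). Polr2c, which forms part of the assembly platform of Pol II, went from 129.2, 131.3 and 126.6 to 106.2, 106.8 and 106.9 TPM (-0.27 ± 0.03). Both sets of libraries were tight and separate. Polr1c (-0.17 ± 0.05) and Polr2h (-0.16 ± 0.05) were also lower, but each lost its call when any of 5 of the 6 libraries was left out. Polr1e rose from 38.6, 35.7 and 34.6 to 44.5, 44.5 and 44.4 TPM (0.29 ± 0.06), and Polr3d from 28.8, 28.5 and 27.5 to 34.9, 35.2 and 31.2 (0.25 ± 0.05). The large subunits did not pass on the values as deposited: Polr1a differed by 0.03, Polr1b by -0.10, Polr2a by 0.22, Polr2b by 0.41 (limma adjusted p = 0.015), Polr3a by -0.05 and Polr3b by 0.01. With the length trend removed, 12 subunit genes passed, 5 higher and 7 lower, where 37.2% of all genes did. The genes that then passed in addition were Polr2a (0.19 ± 0.04, limma adjusted p = 0.0012), Polr2b (0.40 ± 0.11, limma adjusted p = 0.0043), Polr1d (0.15) and Polr3e (-0.11).

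With rescue, 5 subunit genes passed between the siRNAs at day 0, 2 higher and 3 lower, where 13.7% of all genes passed (8.10% higher, 5.64% lower). Polr3gl was again the gene over 1.8-fold, a size reached by 1.36% of all genes. Polr2c (-0.13), Polr2e (-0.12), Polr1e (0.23) and Polr3gl passed in both day 0 comparisons, which have no libraries in common, and Polr2a passed with rescue (0.35 ± 0.09, limma adjusted p = 0.0092) and differed by 0.22 without (limma adjusted p = 0.069). Under the median of ratios and with the length trend removed, Polr1e (0.20 and 0.21), Polr2c (-0.16 in both) and Polr2e (-0.15 and -0.13) had differences of similar size with rescue but no longer passed. Leaving out si-CTL with rescue replicate 1, 2 or 3 left 1, 1 and 3 genes past the threshold, and leaving out si-Rsl24d1 with rescue replicate 1, 2 or 3 left 1, 3 and 2.

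Ectopic Rsl24d1 in depleted cells at day 0 was compared with depletion alone, sharing its si-Rsl24d1 libraries with the knockdown comparison. Of the 28 genes, 6 were higher and 1 lower, where 15.3% of all genes passed, 3.06% higher and 12.2% lower. The higher genes were all of Pol II or shared: Polr2i (0.39), Polr2f (0.33), Polr2l (0.31), Polr2j (0.29), Polr2e (0.28) and Polr2c (0.14). Of these, Polr2e and Polr2c were lower in the knockdown without rescue. Polr2i (-0.13), Polr2f (-0.23), Polr2l (-0.03) and Polr2j (0.06) did not pass there. In si-CTL cells, rescue gave 0.19 for Polr2i, 0.22 for Polr2f, 0.12 for Polr2l and 0.16 for Polr2j, none past the threshold. Polr2e (0.01) and Polr2c (0.004) hardly differed in si-CTL cells. Polr2e was at 189.7, 191.8 and 186.4 TPM with rescue, between the depleted and the si-CTL libraries, and its siRNA effect differed with rescue in the test of the interaction (0.27 ± 0.04, limma adjusted p = 0.00088), the 1 subunit gene to pass there, where 2.09% of all genes did. Polr3gl was at 3.66, 2.83 and 3.71 TPM without and 4.59, 4.57 and 4.42 with rescue (0.34 ± 0.10, limma adjusted p = 0.014), which did not pass, and its interaction was 0.24 ± 0.14 (limma adjusted p = 0.38). Polr3d was lower with rescue (-0.20), a call not kept under the median of ratios (-0.06) or with the length trend removed (-0.15). Length moved with this comparison too, from a median of 0.01 up to 1 kb to -0.27 over 8 kb over all genes. With that trend removed, 7 genes were higher and 0 lower, 6 of them kept, with Polr2i at 0.39, Polr2e at 0.35, Polr2c at 0.28 and Polr2d gained (0.13). Leaving out si-Rsl24d1 replicate 2 without rescue left 4 genes past the threshold, and leaving out replicate 1, 2 or 3 with rescue left 3, 3 and 14.

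In si-CTL cells at day 0, doxycycline with the ectopic gene gave 0 subunit genes past the threshold in limma, where 0.0122% of all genes passed, although 13 of the 28 had an unadjusted p below 0.05, as did 41.0% of all genes. The largest subunits were numerically lower, Polr2a at 116.2, 111.2 and 105.3 TPM against 156.3, 143.4 and 136.9 (-0.39, limma adjusted p = 0.024) and Polr1a at 55.9, 49.9 and 45.9 against 70.1, 62.4 and 58.9 (-0.33, limma adjusted p = 0.027). Neither gene's groups overlapped. Across all genes the median went from 0.04 up to 1 kb to -0.28 over 8 kb here. With the length trend removed, the difference was -0.15 for Polr2a (limma adjusted p = 0.1) and -0.06 for Polr1a (limma adjusted p = 0.31).

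At day 4 without rescue, where the Rsl24d1 mRNA levels of the groups overlapped, 11 subunit genes passed between the siRNAs, 5 higher and 6 lower, where 30.9% of all genes passed (24.9% higher, 6.04% lower). The lower genes were mostly small subunits: Polr2l (-0.42), Polr2f (-0.35), Polr2g (-0.24), Polr2h (-0.18), Polr2d (-0.14) and Polr2e (-0.13). Polr2l was at 30.0, 30.8 and 30.4 TPM in si-CTL and 24.5, 22.5 and 20.3 in si-Rsl24d1. The higher genes were Polr2a (0.44), Polr3b (0.41), Polr1a (0.38), Polr3e (0.26) and Polr2m (0.21). Polr2a was at 54.1, 52.7 and 54.6 TPM in si-CTL and 60.4, 78.3 and 83.8 in si-Rsl24d1, so that the groups were apart but the si-Rsl24d1 libraries spread widely. Over all genes the median difference increased with length from -0.05 up to 1 kb to 0.39 over 8 kb. With that trend removed, Polr1a differed by 0.01, Polr2a by 0.14 and Polr3e by 0.07, and 7 genes passed, 1 higher and 6 lower. Of the 11 calls, 5 were kept and 6 lost, those of Polr2d, Polr2g and Polr3b among the lost. Another 2 were gained, Polr2c among them. Under scaling by the median of ratios, which moved the all-gene median from 0.13 to -0.003, 14 passed, 3 higher and 11 lower. Leaving out si-CTL replicate 1 or 2 left 5 and 7 genes, leaving out si-Rsl24d1 replicate 2 or 3 left 4 and 4, and a fit of these groups alone left 0.

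With rescue at day 4, 2 subunit genes passed, both lower, Polr3g (-0.28 ± 0.06, limma adjusted p = 0.0025) and Polr2e (-0.13), where 5.87% of all genes passed (2.33% higher, 3.53% lower). Polr3g was at 39.5, 42.6 and 39.8 TPM in si-CTL and 32.8, 34.3 and 32.4 in si-Rsl24d1. Rsl24d1 mRNA was higher in these si-Rsl24d1 libraries than in the si-CTL libraries. Polr3gl differed by 0.11 without and 0.10 with rescue, with 4.29, 4.77 and 5.50 TPM in si-CTL and 4.97, 5.30 and 5.65 in si-Rsl24d1 without rescue, and these groups overlapped. Leaving out si-CTL with rescue replicate 1, 2 or 3 left 1, 0 and 1 genes past the threshold, and leaving out si-Rsl24d1 with rescue replicate 1, 2 or 3 left 0, 1 and 0.

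The siRNA effect differed between day 0 and day 4 without rescue in 8 subunit genes by the interaction term, 7 higher and 1 lower, where 30.9% of all genes passed (22.1% higher, 8.83% lower). Rsl24d1 mRNA levels overlapped between the siRNAs at day 4, so that stage and loss of the knockdown cannot be told apart here. Polr3gl had the largest term (1.29 ± 0.14, limma adjusted p = 4.4e-07): under RA it fell in si-CTL cells (-0.76), from 9.41, 9.28 and 8.02 to 4.29, 4.77 and 5.50 TPM, and rose in si-Rsl24d1 cells (0.53), from 3.66, 2.83 and 3.71 to 4.97, 5.30 and 5.65. The day 4 groups overlapped, whereas the day 0 groups did not. With rescue, Polr3gl fell in si-CTL cells (-0.96 ± 0.10) and differed by 0.08 in si-Rsl24d1 cells (limma adjusted p = 0.48). Polr3g had a term of 0.32 ± 0.08, which did not pass under the median of ratios (0.17) or with the length trend removed (0.19), and its RA difference was -0.32 in si-CTL cells and below 0.01 in size in si-Rsl24d1 cells. Under the median of ratios, the split of the interaction was 2 higher and 4 lower rather than 7 and 1, and with the length trend removed it was 3 higher and 5 lower. Leaving out si-CTL replicate 1 at day 0 left 5 genes, and leaving out si-Rsl24d1 replicate 1 or 2 at day 4 left 14 and 5.

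The other genes of these pathways were described from lists of initiation, assembly and regulatory factors. Their counts stand beside 14.3% higher and 16.1% lower over all genes in the day 0 knockdown without rescue, and 24.1% higher and 36.7% lower under RA in si-CTL cells without rescue. Of the 3 Pol I subunits under other symbols, 0 were higher and 2 lower in the day 0 knockdown without rescue, and 0 and 2 under RA in si-CTL cells without rescue. Among 7 factors of Pol I initiation and termination, 1 was higher and 6 lower under RA in si-CTL cells without rescue (median -0.34), among them Ubtf (-0.94), which bends rDNA for initiation, and Taf1c of the promoter selectivity factor SL1 (-0.78), while its subunit Taf1b rose (0.48). After the knockdown, 2 of these rose, Ttf1, the Pol I termination factor (0.40), and Taf1d (0.30), and 0 fell. Among 19 general factors of Pol II, the same RA comparison had 5 higher and 9 lower, with Gtf2h1 (-0.82) and Ercc2 (-0.76) of TFIIH lowest and Mnat1 (0.68) and Gtf2b (0.34) highest. The knockdown had 1 higher, Gtf2e1 (0.34), and 7 lower, including Ercc2 (-0.39) and Gtf2h4 (-0.31).

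Among 15 initiation factors of Pol III, 1 was higher and 9 lower under RA in si-CTL cells without rescue (median -0.45), with Gtf3c6 (-0.93) of TFIIIC and Bdp1 (-0.84) of TFIIIB lowest and Snapc2 higher (0.19). The median of this list was 0.04 in si-CTL cells with rescue, where 1 was higher and 6 lower (36.8% and 22.4% of all genes). After the knockdown, 6 were higher and 0 lower (14.3% and 16.1% of all genes), led by Gtf3c1 (0.86), the largest TFIIIC subunit, and Snapc2 (0.35). Maf1, the repressor of Pol III, passed in 1 of the 4 RA comparisons, in si-Rsl24d1 cells without rescue (-0.39). Among 12 factors of polymerase assembly and import, 1 rose in the knockdown, Gpn3 (0.93, limma adjusted p = 6.6e-13), a GTPase that brings polymerase subunits into the nucleus, and 8 fell, including Uri1 (-0.43) and Ruvbl1 (-0.41), members of assembly chaperone complexes. Under RA in si-CTL cells without rescue, 0 of these rose and 6 fell, with Zpr1 (-0.60) and Rpap1 (-0.55) lowest. Of 7 Pol III transcripts that passed the filter, 0 passed after the knockdown in either direction, although their median difference was 1.81, and 1 was higher under RA in si-CTL cells without rescue, Rn7sk (1.99). Such RNAs mostly lack poly-A tails and their libraries spread widely: Rn7s1 was at 30.1, 198.2 and 429.5 TPM in day 4 si-CTL cells without rescue.

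Cell type markers were read beside these results. The summed level of 6 ESC markers was 2367 to 2409 TPM in day 0 si-CTL cells without rescue, 1717 to 1754 in si-Rsl24d1 cells without rescue, 2199 to 2294 in si-CTL and 1869 to 1958 in si-Rsl24d1 cells with rescue, and 1506 to 1708 over the day 4 groups. Under RA, 5 of the 6 were lower and 1 higher in si-CTL cells both without and with rescue (Nanog being the higher gene in each), while 2 were lower and 3 higher in si-Rsl24d1 cells without rescue, and 2 and 2 with rescue. The 4 extraembryonic endoderm markers tested were higher in all RA comparisons, with a sum of 3.68 to 7.61 TPM at day 0 and 14.4 to 35.8 at day 4, and the fibroblast markers summed to between 19.8 and 44.8 TPM at day 0 and between 75.0 and 185 at day 4. The neural markers summed to 16.6 to 27.9 TPM at day 0 and 18.7 to 32.6 at day 4. The ESC sum moved with the RA comparisons and with the knockdown at day 0, and overlapped between the siRNAs at day 4 (1536 to 1633 against 1537 to 1662 TPM without rescue). Its part in the subunit results was not tested.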

How the data were processed

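The authors deposited 1 table of 24 libraries as log2(TPM + 1). TPM summed to 1000000 in each library, so that the sequencing depth is unknown and no count test was run. The submitters' processing notes name STAR 2.7.8a, Salmon 1.4.0 and the build GRCh38, whereas the study's methods name mouse references, other versions of these tools and tximport. The sources also differ on the kit (poly-A or stranded total RNA) and on the time of collection (72 h or 48 h). After genes with a mean below 0.5 on this scale had been removed, the rest were tested with limma 3.58.1 in R 4.3.3, with 8 group means, a trended prior and Benjamini-Hochberg adjustment over all genes. A gene passed at an adjusted p below 0.01, and the size threshold was 1.8-fold. Fold changes are on the log2(TPM + 1) scale and understate the change of low genes. The code was tested on simulated data. Per-library TPM was recovered from the deposited log2 values.

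The subunit genes and the lists were chosen with earlier results of these data known. Named genes were the large, shared and paralogous subunits, any subunit gene past both thresholds, and the 2 largest rises and falls per enzyme in the day 0 knockdown and in the RA comparison of si-CTL cells, both without rescue. The counts cover all 28 subunit genes, of which 1 is not reported by name or drawn here. For each other list at most 2 genes a direction were named. Alternatives were 0.1 or 2 added to the TPM, a filter at 1.5 or none, scaling by the median of ratios, fits of only the groups compared, a replicate block and leaving out each library. The removal of each library's length trend (lowess, span 0.5) and the B box search were chosen after seeing the data. Several subunit genes overlap exons on the other strand, Polr1a, Polr2b, Polr2c, Polr2f, Polr2h, Polr2i, Polr2j and Polr3b beside Polr3gl among them, and the strandedness of the counts is not given in the sources used here. Transcript lengths came from gencode annotation on GRCm38, and promoters from RefSeq.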

Additional observations from a re-analysis of the deposited data

Results flagged for a closer look

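The siRNA effect differed between day 0 and day 4 without rescue, by the limma interaction term over all genes, in 8 of 28 subunit genes, where 30.9% of all genes passed, so that the share was no more than the background. The term, day 4 minus day 0 on the log2 scale, was 1.286 for Polr3gl, 0.367 for Polr3e, 0.323 for Polr3g, 0.257 for Polr2e, 0.243 for Polr1c, 0.197 for Polr2m, 0.194 for Polr2c and -0.392 for Polr2l, with limma adjusted p-values from 4.4e-07 (Polr3gl) to 0.0099 (Polr2m). With the length trend removed, the terms of Polr2c (0.02), Polr2e (0.16), Polr2m (0.11) and Polr3g (0.19) no longer passed, while those of Polr1d (-0.19), Polr1e (-0.30), Polr2b (-0.55) and Polr2d (-0.17) did, so that 3 were higher and 5 lower. Under the median of ratios the term of Polr1c was 0.09 (limma adjusted p = 0.27). Since Rsl24d1 mRNA overlapped between the siRNAs at day 4, these terms cannot separate stage from loss of the knockdown.

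The siRNA effect at day 0 differed between no rescue and rescue in Polr2e, with a term of 0.271 (limma adjusted p = 0.00088) that gave a limma adjusted p of 0.045 under the median of ratios. Polr3gl had the largest siRNA effect at day 0, and its term for rescue was 0.24 (limma adjusted p = 0.38).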

How the results depend on the processing

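Over 180 recomputed counts of subunit genes past the threshold, 142 stayed within 1.5 times the reported count and 38 did not, of which 23 came from leaving out a library and 0 from an RA comparison. Of 124 named log2 differences, 42 lost their call under at least 1 alternative, 0 changed sign and 28 moved by over 1.5 times, 25 of them under the median of ratios and 17 with the length trend removed, with ratios to the reported value from 0.037 to 2.43. For the day 0 knockdown, 5 genes passed without rescue in a fit of only the groups compared. With rescue, 3 passed with the length trend removed, 3 under the median of ratios, 3 with no filter, 1 in a fit of only the groups compared and 3 with the replicate block. For the day 4 knockdown without rescue, 7 passed with the length trend removed and 0 in a fit of only the groups compared. With rescue at day 4, 1 passed with the trend removed, 1 under the median of ratios, 0 in a fit of only the groups compared and 1 with the replicate block. For the rescue of depleted cells, 3 passed in a fit of only the groups compared. For the interaction of siRNA and rescue, 0 passed under the median of ratios and 0 in a fit of only the groups compared. Why these counts moved was not tested, apart from the smaller number of samples in the restricted fits.

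Leaving out each library gave 18 to 19 genes for RA in si-CTL cells without rescue and 18 to 20 with rescue, 20 to 22 for RA in si-Rsl24d1 cells without and 18 to 22 with rescue, 6 to 8 for the day 0 knockdown without and 1 to 3 with rescue, 4 to 16 for the day 4 knockdown without and 0 to 1 with rescue, 3 to 14 for the rescue of depleted cells, 0 for that of si-CTL cells, 5 to 14 for the interaction with day and 1 for that with rescue. No pairing by replicate number was seen: residuals of same-numbered libraries correlated at a mean of -0.0173 (-0.223 to 0.169 over 84 pairs). The mean over 168 pairs of other numbers was 0.00865. Residuals of a group sum to 0, so that this second mean is tied to the first and is no separate baseline. With the replicate block, 18, 20, 22 and 20 genes passed under RA, 7 in the day 0 knockdown and 9 in the day 4 knockdown, both without rescue. The unknown depth and 3 libraries a group limit what small differences could be detected.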
